A study of Homo sapiens with 6 samples.

Results

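GAPDH, PGK1 and ODC1 are 3 metabolic enzyme genes, among 20 mRNAs whose probes were spotted 10 times on each array in a study of 60639 target probes. They were chosen by RefSeq accession: NM_002046 is GAPDH, NM_000291 is PGK1 and NM_002539 is ODC1, and only probes carrying the plain accession were taken, with 1 probe per gene. In GRCh38.p14, GAPDH lies on chromosome 12 from 6534517 to 6538371, PGK1 on chromosome X from 78104248 to 78129295 and ODC1 on chromosome 2 from 10439968 to 10448327. Their mRNA was measured in MDA-MB-231, an established human breast cancer cell line with mesenchymal-like features, after 24 h with PBS (the control), LPS, IL1b, TNFa, IL6 or TGFb. All cells were the unmodified line, and the doses are not given in the sources used here. Each of the 6 groups had 1 array, so the spread between cultures is unknown and nothing was tested. The study screened for long non-coding RNAs whose levels change under inflammatory stimulation.

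Glycolysis splits glucose into pyruvate and is used heavily by many cancer cells. GAPDH (glyceraldehyde-3-phosphate dehydrogenase) oxidises glyceraldehyde 3-phosphate to 1,3-bisphosphoglycerate, and its mRNA is often taken as a reference in expression work. PGK1 (phosphoglycerate kinase 1) catalyses the next step and makes ATP; its gene is a textbook target of the hypoxia factor HIF1. ODC1 (ornithine decarboxylase) makes putrescine from ornithine, the rate-limiting step of polyamine synthesis, and is a textbook target of MYC. Polyamines are small cations that growing cells need for nucleic acid and protein synthesis.

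The core of a HIF1 site is often written ACGTG, the only form searched here. MYC binds the E-box, CACGTG, which holds that core on both strands. These stretches of 30 bases, from RefSeq promoter windows (GRCh38.p14) that run from 250 bases before to 50 after a transcript start, show every match to these letters for the 3 genes, with the match in capitals. Where the capitals read CACGT, the core lies on the other strand.
GAPDH at -81, chr12:6535171-6535200, plus strand: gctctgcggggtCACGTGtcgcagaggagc
PGK1 at -202, chrX:78104034-78104063, plus strand: gcggcgtgccggACGTGacaaacggaagcc
PGK1 at -183, chrX:78104053-78104082, plus strand: aaacggaagccgCACGTctcactagtaccc
PGK1 at 29, chrX:78104264-78104293, plus strand: gcctccggagcgCACGTcggcagtcggctc
ODC1 at -29, chr2:10448024-10448053, minus strand: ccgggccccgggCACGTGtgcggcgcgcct
ODC1 at 6, chr2:10447990-10448019, minus strand: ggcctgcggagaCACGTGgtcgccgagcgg
Positions count from the transcript start of the window, which is 6535264 for GAPDH, 78104248 for PGK1 and 10448012 for ODC1. A window for another ODC1 start, at 10448327, held neither motif. The GAPDH window lies inside the gene span given above, which begins at 6534517, and no window at that first base was read. Of all 35116 windows of this length, searched on both strands, 7.26% held the E-box and 21.4% held ACGTG, which counts every E-box too. A match is a description of the reference letters, and the arrays measured no binding.

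The arrays differed in more than treatment. Probes well above background made up a share that ran from 33.2% with PBS to 68.4% with IL6. Of negative control spots, 0.5% passed as well above background on the PBS array, 1.83% to 2.33% on the LPS, IL1b and TNFa arrays, 12.8% on the IL6 array and 11.2% on the TGFb array. Before scaling, the median log2 difference from PBS over the 19077 probes well above background on every array (detected probes below) was 0.75 after LPS, 1.59 after IL1b, 0.81 after TNFa, 1.53 after IL6 and 1.41 after TGFb. Levels below are log2 intensities after quantile normalization, which gives every array the same distribution, and a difference is treated minus PBS on that scale unless another is named. On that scale the same median lay between -0.20 with TNFa and -0.045 with TGFb. The part of array brightness and background in the differences was not tested.

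After quantile normalization, GAPDH was a little higher on all 5 treated arrays than on the PBS array and varied little among the treated arrays. Its level was 16.01 after PBS, 16.20 after LPS, 16.25 after IL1b, 16.26 after TNFa, 16.30 after IL6 and 16.25 after TGFb. The PBS array was lowest, and its spots, from 15.89 to 16.08 with a median of 16.00, did not overlap the spots used on any treated array, the lowest of which was 16.14 with LPS. The spot SD was 0.0575 with PBS and 0.0334 to 0.0591 elsewhere. Spot SDs cover noise between spots of 1 hybridization and not the spread between cultures.

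The difference of GAPDH from PBS was 0.19 after LPS, 0.25 after IL1b, 0.25 after TNFa, 0.29 after IL6 and 0.25 after TGFb, or 1.14-fold to 1.22-fold. Among the treated arrays the range was 0.097, beside 0.285 under cyclic loess, 0.703 with no scaling and 0.982 when each array's overall 75th percentile set its scale. After quantile normalization, 7 of all 15 pairs of arrays, each between treated arrays, differed by less than the combined spot SD. The direction against PBS depended on the scaling. With arrays scaled to the 75th percentile of all probes, the differences were -0.11 after LPS, -0.40 after IL1b, -0.28 after TNFa, -1.09 after IL6 and -1.06 after TGFb. Under cyclic loess they were negative with LPS (-0.11) and IL1b (-0.078) as well. GAPDH was among the brightest probes, with 134 to 246 of 60596 probes brighter on each array, and no spot of the 3 genes was marked as saturated.

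**Figure D1:**
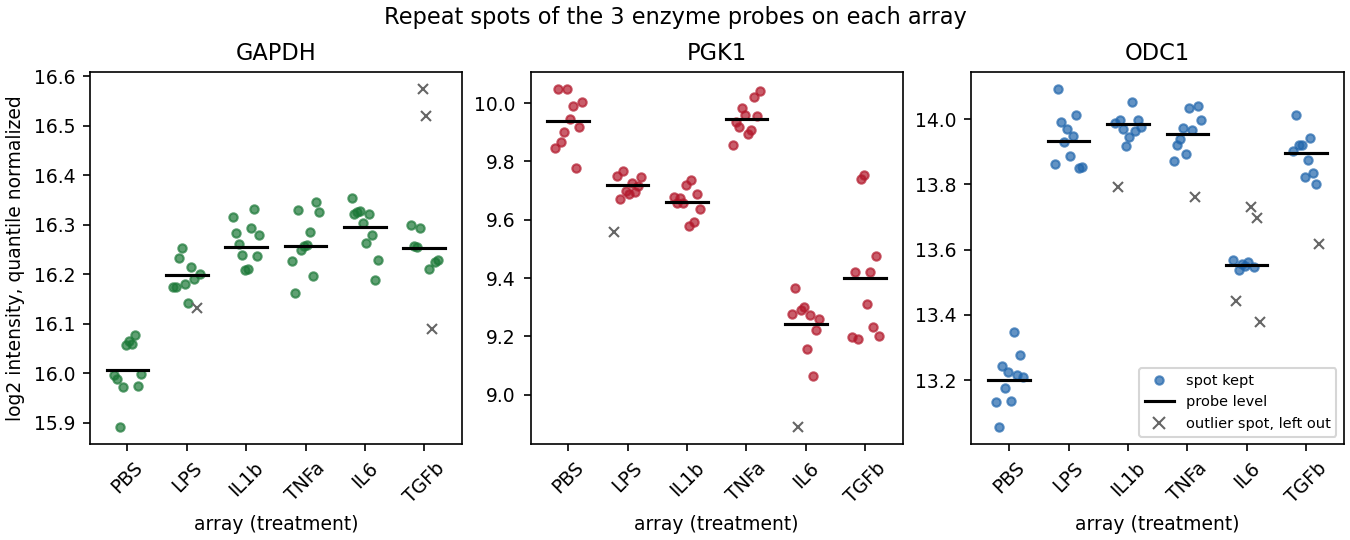
Quantile-normalized log2 intensity (vertical axis, scaled separately per gene) of each repeat spot of GAPDH, PGK1 and ODC1 on the 6 arrays; circles are spots used, crosses are spots marked as outliers and left out, and lines are probe levels. The PBS spots of GAPDH and ODC1 lie below those used on every treated array, and the PGK1 spots with IL6 (9.06 to 9.37) lie below those with PBS (9.78 to 10.05).

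After quantile normalization, PGK1, the neighbour of GAPDH in the pathway, did not follow it. On that scale PGK1 was lowest with IL6 and TGFb and as high with TNFa as with PBS. Its level was 9.94 after PBS, 9.72 after LPS, 9.66 after IL1b, 9.94 after TNFa, 9.24 after IL6 and 9.40 after TGFb. PBS and TNFa were highest, LPS and IL1b lay between, and IL6 and TGFb were lowest. Within each of these 3 pairs of arrays the difference was smaller than the combined spot SD, and in the other 12 pairs it was larger.

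Against PBS, PGK1 differed by -0.70 with IL6 (1.62-fold lower, SE over spots 0.041) and by -0.54 with TGFb (1.45-fold lower, SE over spots 0.0731). With IL6 all 9 spots used on both arrays were lower than their PBS counterparts, and with TGFb all 10 were. Spots on the TGFb array were the most scattered, from 9.19 to 9.76 around a median of 9.36, with a spot SD of 0.213. The spots with IL6 ran from 9.06 to 9.37 and those with PBS from 9.78 to 10.05, so neither treated array overlapped PBS.

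PGK1 differed by -0.22 with LPS and -0.28 with IL1b, with all 9 and all 10 paired spots lower. With TNFa the difference was 0.0056, with 6 paired spots higher and 4 lower and the ranges overlapping. The order TNFa, PBS, then the rest with IL6 lowest, also held in the authors' deposited table, under cyclic loess and under both scalings to the 75th percentile. The difference of IL6 from TNFa, which does not use the PBS array, was -0.70 after quantile normalization, -0.59 under cyclic loess, -0.50 with arrays scaled to the 75th percentile of the 19077 detected probes, and -0.16 with no scaling. The place of IL6 and TGFb below LPS depended on the scaling. PGK1 with IL6 minus LPS was -0.48 after quantile normalization and 0.22 with no scaling, and with TGFb minus LPS it was -0.32 and 0.21. The difference from PBS with IL6 turned to 0.99 with no scaling and to 0.47 when arrays were centred on the other repeat-spot mRNAs. In these settings the median difference of the detected probes with IL6 was 1.53 and 1.01. With no scaling, PGK1 with IL6 lay at -0.54 from that median, beside -0.62 after quantile normalization. The IL6 and TGFb arrays are also those with the most negative control spots above background, and the part of that in the PGK1 difference was not tested.

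ODC1 was higher on every treated array than on the PBS array, and least so with IL6. Its level was 13.20 after PBS, 13.93 after LPS, 13.98 after IL1b, 13.96 after TNFa, 13.55 after IL6 and 13.90 after TGFb. The PBS array was lowest, IL6 stood between, and LPS, IL1b, TNFa and TGFb lay within 0.089 of each other. Spots with PBS ran from 13.06 to 13.35 around a median of 13.21, those with IL6 from 13.54 to 13.57, and the lowest used on the other 4 arrays was 13.80 with TGFb. Of the neighbours in this order, IL1b, TNFa, LPS and TGFb differed by less than their combined spot SD, while TGFb and IL6 (0.34) and IL6 and PBS (0.35) differed by more.

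The difference of ODC1 from PBS was 0.73 after LPS (1.66-fold, SE over spots 0.0359), 0.78 after IL1b (1.72-fold), 0.75 after TNFa (1.69-fold), 0.35 after IL6 (1.28-fold) and 0.69 after TGFb (1.62-fold). Every paired spot was higher than on the PBS array, 10 of 10 with LPS, 9 of 9 with IL1b, TNFa and TGFb, and 6 of 6 with IL6. On the IL6 array 4 of 10 spots had been marked as outliers, at 13.38 to 13.73, on both sides of those used, which leaves the spot SD of 0.0113 there narrower than on the other arrays (0.0375 to 0.0814). With LPS, IL1b and TNFa the difference stayed past 1.5-fold in 9 of 10 other settings, the exception being a control taken as the median over the other 5 arrays, where it was 0.038, 0.089 and 0.0599. With arrays scaled to the 75th percentile of all probes, ODC1 lay at -0.27 with IL6 and -0.063 with TGFb. ODC1 was lower with IL6 than with LPS, IL1b, TNFa or TGFb in each of the 7 scalings compared, by 0.0954 (below LPS with no scaling) to 1.17 (below LPS when the overall 75th percentile set the scale), and by 0.23 to 0.43 after quantile normalization or cyclic loess.

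The members were then read against all probes. None of the 3 was past 2-fold in any comparison, where the share of probes called 2-fold either way was 26.2% after LPS, 30.8% after IL1b, 31.8% after TNFa, 42.8% after IL6 and 43.8% after TGFb, out of probes whose brighter array lay above its median. At 1.5-fold, ODC1 was the member called higher, with LPS (24.7% of probes called higher), IL1b (26.9%), TNFa (26.4%) and TGFb (33.0%), and with IL6 no member was (31.9%). PGK1 was the member called lower with IL6 (29.8% of probes called lower), and no member was called lower with LPS (26.7%), IL1b (31.4%), TNFa (30.1%) or TGFb (29.6%). Where both arrays had to be well above background, the share called 1.5-fold higher was 17.1% with LPS, 19.5% with IL1b, 18.2% with TNFa and 22.0% with TGFb. The share called lower with IL6 was then 31.3%. With calls this common, a 1.5-fold call does not by itself set the enzymes apart from other probes. Scaled to the 75th percentile of the 19077 detected probes, the share of 1.5-fold calls that were higher moved from 48.0% to 37.8% with LPS, from 51.7% to 64.6% with IL6 and from 52.7% to 66.9% with TGFb.

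Among the 19077 detected probes, 86.8% had a lower difference than ODC1 after LPS, 85.4% after IL1b, 85.7% after TNFa, 70.4% after IL6 and 81.6% after TGFb. For PGK1 the share was 25.8% after IL6 and 30.0% after TGFb, beside 45.5% after LPS, 46.4% after IL1b and 60.0% after TNFa. GAPDH lay between 63.6% with TGFb and 70.5% with TNFa after quantile normalization, but its place among these probes depended on the scaling. Relative to their median difference, GAPDH lay at 0.29 (TGFb) to 0.45 (TNFa) after quantile normalization. Under cyclic loess it lay at 0.038 (IL6) to 0.25 (TNFa). Without scaling it was below that median on all 5 treated arrays, from -0.71 (IL6) to -0.0165 (LPS). The robust SD of the difference over these probes ran from 0.68 with LPS to 0.90 with TGFb. Of the 15 member differences from PBS, only ODC1 with LPS (0.73) and TNFa (0.75, beside 0.74) were larger than that of their own comparison. Measured from the median of these probes, ODC1 with IL1b (0.98, beside 0.80) was larger as well. Over its 6 arrays GAPDH had a range of 0.29 after quantile normalization, and 98.1% of these probes had a wider range, beside 81.2% for PGK1 (0.70) and 76.4% for ODC1 (0.78). The range of GAPDH was also 0.29 under cyclic loess. It was 0.61 with arrays scaled to the 75th percentile of the detected probes, 1.09 with that of all probes and 1.43 with no scaling. The share of probes with a wider range was taken only after quantile normalization.

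**Figure D2:**
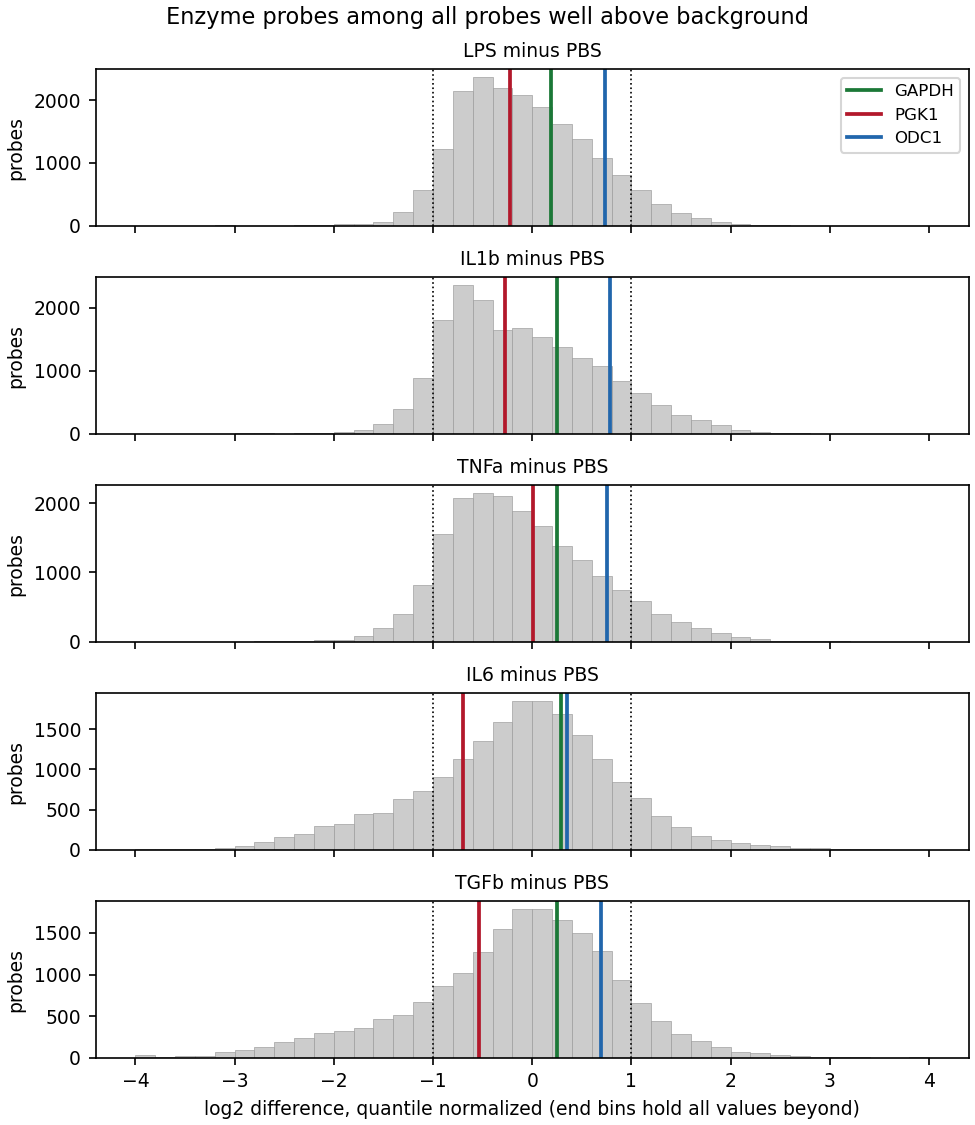
Number of probes (vertical axis) by log2 difference from PBS (horizontal axis, quantile normalized) for the 19077 detected probes, 1 panel per treatment, with coloured lines at GAPDH, PGK1 and ODC1 and dotted lines at 2-fold. All 3 genes lie inside the 2-fold lines in every panel, and PGK1 moves left of the centre with IL6 (-0.70) and TGFb (-0.54).

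The members were also compared with each other, since a factor common to all probes of an array cancels in the difference between genes. The difference from PBS of ODC1 was above that of PGK1 by 0.95 after LPS, 1.06 after IL1b, 0.75 after TNFa, 1.05 after IL6 and 1.23 after TGFb. The same quantity was 0.96, 0.91, 0.60, 0.65 and 0.76 in that order with no scaling, and 1.05, 1.17, 0.81, 1.12 and 1.29 under cyclic loess. ODC1 and PGK1 thus differed unequally from PBS on all 5 treated arrays under these 3 scalings. All of these values share the single PBS array.

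For ODC1 against GAPDH the excess was 0.54 after LPS, 0.54 after IL1b, 0.50 after TNFa, 0.062 after IL6 and 0.45 after TGFb after quantile normalization, and 0.82 to 1.15 with no scaling. It was above 0 in each case. For the glycolytic pair the direction was not settled. PGK1 minus GAPDH was -0.41 after LPS, -0.53 after IL1b, -0.25 after TNFa, -0.99 after IL6 and -0.78 after TGFb after quantile normalization, and 0.039, 0.24, 0.38, 0.17 and 0.24 with no scaling. Under cyclic loess it was -0.58 with IL6 and -0.59 with TGFb, and 0.019 with TNFa.

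**Figure D3:**
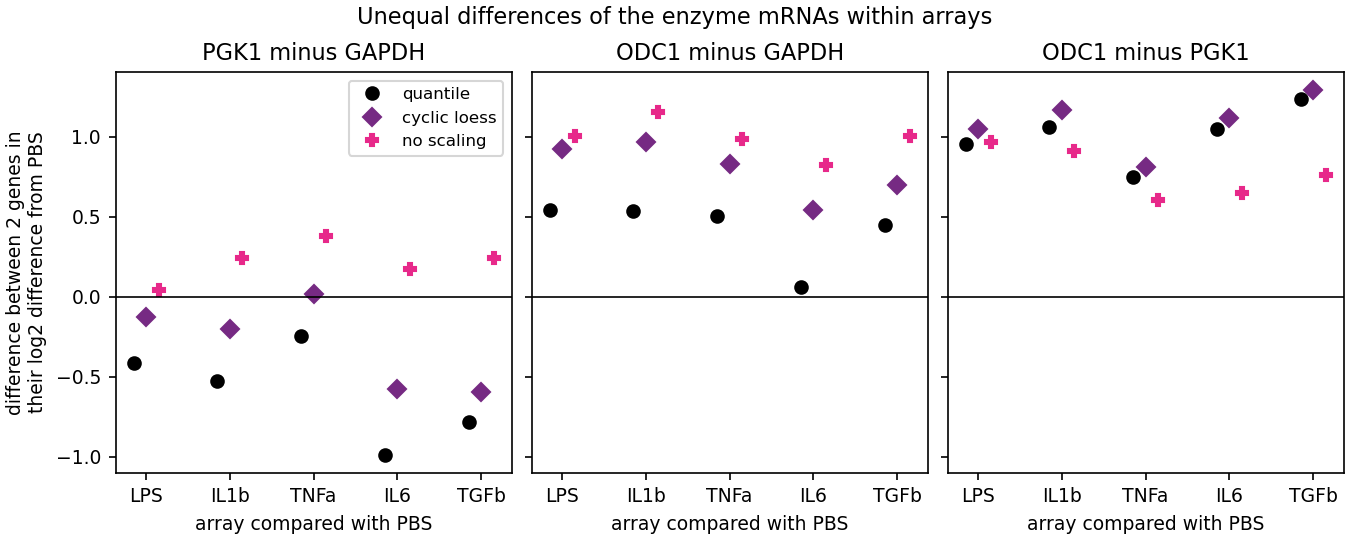
Difference between 2 genes in their log2 difference from PBS (vertical axis) on each treated array (horizontal axis) for each pair of GAPDH, PGK1 and ODC1, under quantile normalization, cyclic loess and no scaling. The ODC1 minus PGK1 values lie between 0.60 and 1.29 in all cases, while PGK1 minus GAPDH lies below 0 after quantile normalization and above 0 with no scaling.

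The other mRNAs with repeat spots carry the same kind of probe. Of these 17, GRM4 and RPL10 were not well above background on all arrays, and 15 remained. Their median difference was 0.16 after LPS, 0.32 after IL1b, 0.13 after TNFa, 0.15 after IL6 and 0.026 after TGFb, beside medians of the 3 enzymes of 0.19, 0.25, 0.25, 0.29 and 0.25. ODC1 stood above 13 of the 15 with LPS and IL1b, 14 with TNFa, 12 with IL6 and all 15 with TGFb. The highest of the 15 in each comparison was PRMT1, which methylates arginine residues, from 0.53 with TGFb to 1.36 with TNFa. PGK1 stood below all 15 after IL1b and IL6, above 1 after LPS, above 2 after TGFb and above 5 after TNFa. GAPDH stood above 7 to 13 of them. Over the 6 arrays, 3 of the 15 had a wider range than PGK1, 3 a wider range than ODC1 and 11 a wider range than GAPDH, beside a median range of 0.43.

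Profiles were compared by the root mean square distance between log2 levels centred on each gene's mean over the 6 arrays. PFN1, an actin-binding profilin, lay at 0.066 from GAPDH, where the median over the other 19 mRNAs was 0.22. For PGK1 the closest were MTX1, a protein of mitochondrial import, at 0.17 and ARHGDIA at 0.18, beside a median of 0.33. ODC1 was closest to RPS18, a small ribosomal subunit protein, at 0.17 and to COX4I1, a subunit of cytochrome c oxidase, also at 0.17, beside a median of 0.28. On the quantile-normalized scale, both glycolytic genes therefore had other mRNAs nearer to them than each other. Profiles were not compared this way under another scaling, and PGK1 minus GAPDH changed sign with no scaling.

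**Figure D4:**
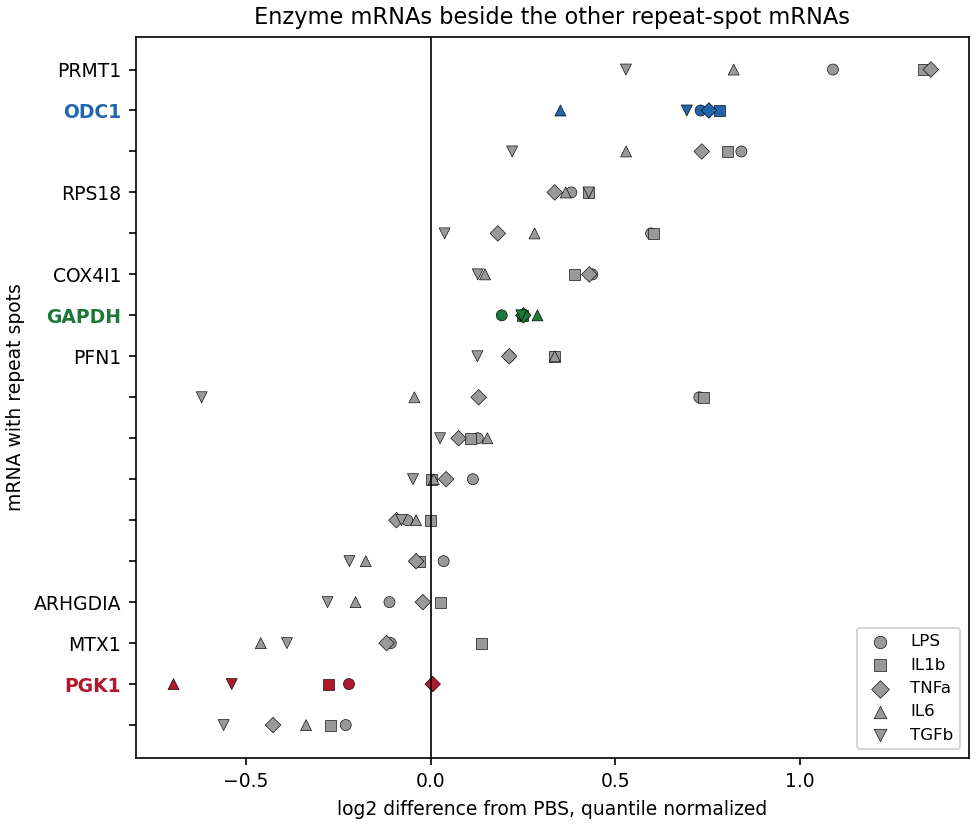
Log2 difference from PBS (horizontal axis, quantile normalized) of 17 of the 18 repeat-spot mRNAs well above background on all 6 arrays (1 is not shown), ordered by their mean difference, with a symbol for each treatment and names for the mRNAs named in the text. ODC1 lies right of 0 in all 5 comparisons (0.35 to 0.78), GAPDH is tightly grouped (0.19 to 0.29), and PGK1 runs from -0.70 with IL6 to 0.0056 with TNFa.

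No other listed gene of these pathways was read. The files name 1365 probes, and 160 of these were matched to a current symbol by RefSeq mRNA accession. Of 22 listed genes of glycolysis, glucose and lactate transport and their regulators, 2 were found, GAPDH and PGK1. Of 17 listed polyamine genes, ODC1 was the 1 found. The other 20 and 16, such as HK2, LDHA, SRM and OAZ1, were not analysed here, nor were any of 20 listed markers of breast cancer, epithelial, leukocyte and fibroblast cells, so the labelled cell type could not be checked against markers.

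**Figure D5:**
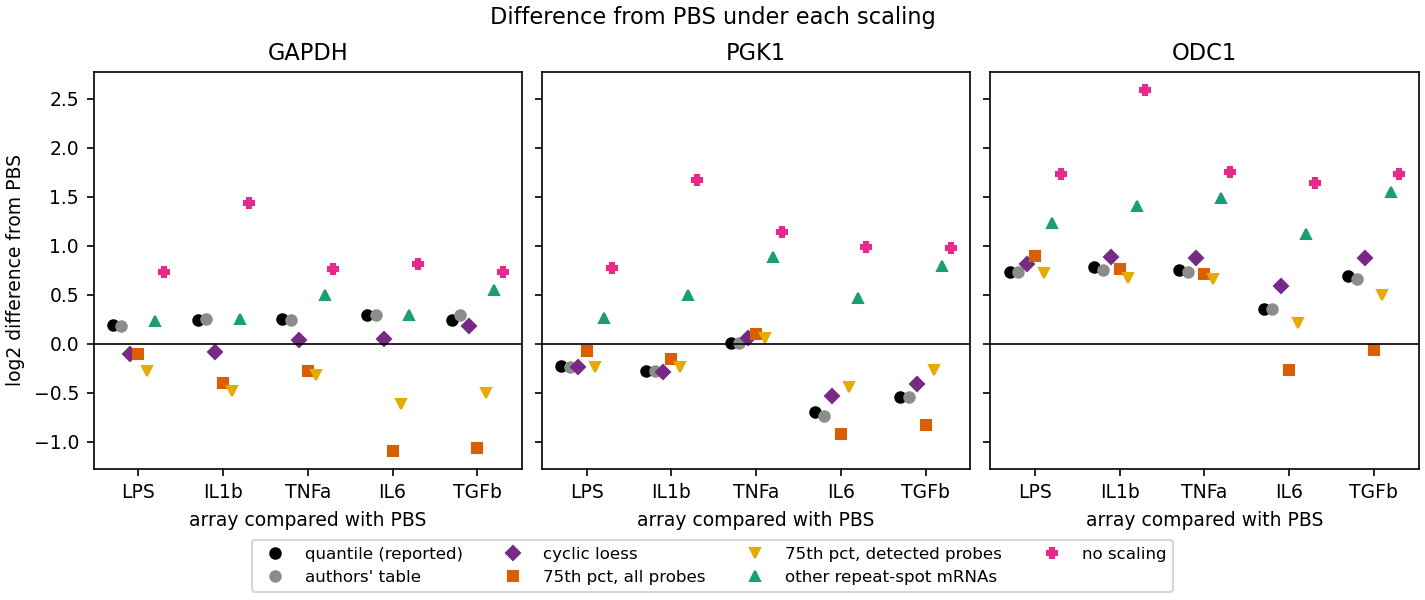
Log2 difference from PBS (vertical axis) of GAPDH, PGK1 and ODC1 on each treated array (horizontal axis) under 7 treatments of array brightness, each with its own symbol. GAPDH lies on both sides of 0 with every stimulus, PGK1 with IL6 runs from -0.92 to 0.99, and ODC1 with LPS, IL1b and TNFa lies at 0.66 or more throughout.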

How the data were processed

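RNA from 6 cultures of MDA-MB-231 was hybridized to 1 array per treatment, with groups taken from the treatment label. The deposited intensity values are processed signals per spot, already background-corrected, per the file headers, and deposited flags mark outlier, saturated and well-above-background spots. The labels describe a NimbleGen array and an Axon scanner, while the columns are those of Agilent Feature Extraction; the files were followed. The authors also deposited log2 values per probe as a series table. RMA is named in the submitters' processing notes, without a version, and for the 3 enzymes that table lay within 0.0449 of the levels computed here.

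Spots flagged as outliers were left out, the rest averaged as log2 intensity per probe, and 60596 of 60639 probes quantile normalized over 6 arrays with limma 3.58.1 in R 4.3.3. Each spot was placed on that scale through its array's own map, which gave the spot SDs. Probes past 1.5-fold or 2-fold were counted where the brighter array lay above its median. Only the 2-fold count was tried on simulated arrays, with a noise chosen for the simulation, so that trial does not bear on the shares reported here. No test was possible on single arrays, and the number of arrays limits the precision. The members, lists and comparisons were chosen with earlier results of these data known. Named genes were the members, listed pathway genes and the 2 repeat-spot mRNAs closest to each member, of which 1 is not reported here; PRMT1, GRM4 and RPL10 were named after their values were seen. Symbols and promoter sequences came from RefSeq, GRCh38.p14. Alternatives covered scaling, spot summary, outlier spots and the control array.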

Additional observations from a re-analysis of the deposited data

How the results depend on the processing

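With 1 array per group, a value was counted as moved when it changed by more than 0.217, the robust SD of log2 differences between the closest pair of arrays, LPS and IL1b, which are not replicates; technical spread between arrays was not measured. All member differences stayed within this under the authors' deposited table, the median of repeat spots, outlier spots kept and, where it applies, quantile normalization over the PBS, LPS, IL1b and TNFa arrays. Cyclic loess (span 0.7, 3 iterations) moved GAPDH to -0.11 with LPS, -0.078 with IL1b and 0.047 with IL6, and ODC1 to 0.59 with IL6.

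The 75th percentile over all probes, used to scale each array, moved GAPDH, with all 5 signs turned, to -0.11 after LPS, -0.40 after IL1b, -0.28 after TNFa, -1.09 after IL6 and -1.06 after TGFb. It put PGK1 at -0.92 with IL6 and -0.82 with TGFb, and ODC1, with its sign turned on both, at -0.27 with IL6 and -0.063 with TGFb. The 75th percentile of the detected probes (well above background on every array) gave GAPDH -0.28, -0.48, -0.32, -0.61 and -0.50 for LPS, IL1b, TNFa, IL6 and TGFb, and PGK1 -0.44 with IL6 and -0.26 with TGFb.

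Chosen after seeing the data, no scaling gave GAPDH 0.73, 1.43, 0.76, 0.82 and 0.74 in the same order of treatments. It gave PGK1 0.77, 1.68, 1.15, 0.99 and 0.98 (signs turned with LPS, IL1b, IL6 and TGFb), and ODC1 1.73, 2.59, 1.75, 1.64 and 1.74. Centring on the 15 other repeat-spot mRNAs, also chosen after seeing the data, gave GAPDH 0.50 with TNFa and 0.55 with TGFb. It gave PGK1 0.27, 0.50, 0.88, 0.47 and 0.79 (signs turned with the same 4), and ODC1 1.23, 1.41, 1.48, 1.12 and 1.55. The median log2 difference of all probes well above background was then 0.25, 0.41, 0.54, 1.01 and 1.22, so these values carry that shift. Relative to the median of the detected probes, PGK1 with no scaling lay at 0.023 with LPS, 0.082 with IL1b, -0.54 with IL6 and -0.43 with TGFb. After quantile normalization it lay at -0.083, -0.083, -0.62 and -0.49 in that order. The cause of the sign changes was not tested.

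With a control taken as the median over the other 5 arrays, GAPDH lay at -0.055, 0.0018, 0.0054, 0.044 and -0.0018, PGK1 at 0.056, -0.056, 0.28, -0.48 and -0.32, and ODC1 at 0.038, 0.089, 0.0599, -0.38 and -0.038. Signs turned there for GAPDH with LPS and TGFb, PGK1 with LPS, and ODC1 with IL6 and TGFb. Centring on spike-in spots was not run, since 0 of 10 spike-in probes were well above background on all 6 arrays.

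Counts of probes past 2-fold, 8814, 10351, 10771, 14886 and 15346 in the same order, became 2362, 3781, 3527, 6004 and 5645 where both arrays had to be well above background. Those past 1.5-fold, 17260, 19598, 19132, 21454 and 21951, became 8075, 10436, 9292, 10253 and 10009. Spots of a member came from 1 hybridization, so agreement among them bears on spot noise alone.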
